A study of Arabidopsis thaliana with 24 samples.

Results

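The ER body is a rod-shaped compartment of the endoplasmic reticulum that plants of the cabbage family fill with β-glucosidases. The genes described here, called ER body genes, encode proteins of this compartment or proteins that gather with its main enzyme in homogenised tissue. They are PYK10 (AT3G09260, also BGLU23), BGLU21 (AT1G66270), BGLU22 (AT1G66280), NAI2 (AT3G15950), PBP1 (AT3G16420), JAL22 (AT2G39310), JAL33 (AT3G16450) and GLL22 (AT1G54000). These 8 genes were taken by identifier from a table of 38088 Arabidopsis thaliana genes, and all 8 were in the table. All 8 also passed the filter on low values, which kept 20964 genes.

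RNA came from 5-day-old seedlings of the mutant dcp5-1 and of the wild type Col-0. DCP5 works with the enzymes that remove the cap of messengers in the cytoplasm, and dcp5-1 is the only mutant allele among these libraries. All seedlings first stood in liquid medium for 30 min and then received 150 mM NaCl for 15 min (T15) or for 0 min (T0). Polysomal RNA was the pooled polysome part of a 10 to 50% sucrose gradient, and total RNA was from the lysate loaded on it. The 8 groups of 3 libraries were dcp5-1 at T15, dcp5-1 at T0, Col-0 at T15 and Col-0 at T0, each as polysomal and as total RNA. No group analysed here spent the 15 min in medium without NaCl, so a change between T0 and T15, called the NaCl change here, cannot be told apart from an effect of transfer or elapsed time.

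ER bodies are constitutive in the epidermis and roots of young seedlings and can be induced in leaves by wounding. PYK10 is their main protein in seedlings and acts as a myrosinase on indole glucosinolates once a damaged cell mixes enzyme and substrate. In homogenised tissue the enzyme gathers in large complexes with jacalin-related lectins and GDSL lipase-like proteins, which keep it active. The bHLH transcription factor NAI1 is required for PYK10 and NAI2 expression, and NAI2 is required for the ER body itself.

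The promoters of the 3 β-glucosidase genes and of NAI2 are shown because PYK10 and BGLU22 were higher in dcp5-1 at both times and in both fractions, as was NAI2 except in total RNA at T0, and BGLU21 was lower except in polysomal RNA at T15, where it did not pass the test, although BGLU21 and BGLU22 are neighbours on 1 strand of chromosome 1 with 3345 bases between them. Each sequence is the 250 bases before the annotated gene start in TAIR10.1 (RefSeq), 5′ to 3′ on the strand of the gene. Capitals mark the E-box CANNTG, the core to which bHLH factors bind as a class, which reads the same on both strands as a pattern and includes the G-box CACGTG. The PYK10 stretch is chr3:2843782-2844031, minus strand. The BGLU21 stretch is chr1:24703167-24703416 and the BGLU22 stretch is chr1:24709997-24710246, both on the minus strand. The NAI2 stretch is chr3:5402654-5402903, minus strand.
PYK10: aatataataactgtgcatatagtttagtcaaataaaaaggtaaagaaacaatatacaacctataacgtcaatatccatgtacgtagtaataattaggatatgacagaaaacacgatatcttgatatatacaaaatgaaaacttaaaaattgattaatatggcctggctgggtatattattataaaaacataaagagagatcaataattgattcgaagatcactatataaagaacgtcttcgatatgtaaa
BGLU21: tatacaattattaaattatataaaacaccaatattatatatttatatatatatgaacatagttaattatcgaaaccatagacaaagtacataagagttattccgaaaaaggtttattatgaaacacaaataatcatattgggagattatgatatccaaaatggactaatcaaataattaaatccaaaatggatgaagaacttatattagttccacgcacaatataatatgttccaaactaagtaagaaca
BGLU22: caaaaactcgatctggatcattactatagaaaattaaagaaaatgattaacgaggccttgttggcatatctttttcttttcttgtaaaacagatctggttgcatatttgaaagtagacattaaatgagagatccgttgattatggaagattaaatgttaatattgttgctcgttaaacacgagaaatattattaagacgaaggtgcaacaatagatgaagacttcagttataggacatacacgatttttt
NAI2: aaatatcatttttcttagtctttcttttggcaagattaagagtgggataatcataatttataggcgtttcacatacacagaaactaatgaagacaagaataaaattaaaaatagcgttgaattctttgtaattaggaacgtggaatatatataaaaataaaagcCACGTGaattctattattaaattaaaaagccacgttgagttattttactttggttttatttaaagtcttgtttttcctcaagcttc
Among these 4 stretches only that of NAI2 held an E-box, a G-box whose first base lay 86 bases before the start. Of the other members, the stretches of JAL22 and JAL33 held 2 E-boxes each, and those of PBP1 and GLL22 held none. Among 27443 promoters of this length in the annotation, 55.3% held an E-box and 6.49% a G-box. A match describes the letters of this window only.

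The libraries held between 14840000 and 18720000 fragments each, as implied by the steps between low values. These gave 41400 to 106000 fragments per library for PYK10 and at least 410 for GLL22, the member with the fewest. DCP5 itself had 12.96 to 21.5 FPKM (fragments per kilobase of transcript and scaled to the library total, the unit of the table) in the 12 dcp5-1 libraries, against 48.45 to 92.3 FPKM in the 12 Col-0 libraries, so that the low values were in the libraries labelled dcp5-1. Columns marked IP were read as polysomal RNA, since the table does not define the mark; were this reading wrong, the names of the fractions would swap. Levels were also compared under nuclear scaling, in which the genes of the chloroplast and mitochondrial genomes are left out before each library is rescaled. Library 1 of Col-0 total RNA at T0 stood apart there, with a scaling factor of 1.18, against 1.01 for library 0 and 1.07 for library 2, and its PYK10, BGLU21, PBP1 and JAL33 levels were the highest of the 3. Since the labels do not say that the 3 libraries of a group came from separate cultures, the spread behind each p-value may be technical.

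Summed levels of tissue markers differed between the genotypes as well, though not in every setting for the root markers. Of 5 green tissue markers, 4 were above 0 and RBCS1A was listed at 0 in every library. Their summed level in total RNA was 15500 to 16500 FPKM in dcp5-1 at T15, 9830 to 10300 FPKM in dcp5-1 at T0, 18200 to 18900 FPKM in Col-0 at T15 and 15000 to 18400 FPKM in Col-0 at T0. In polysomal RNA it was 29200 to 29600, 22200 to 23300, 36000 to 40200 and 34600 to 36600 FPKM in the same order of groups. All 5 root markers were detected, with sums in total RNA of 71.6 to 75.5 FPKM in dcp5-1 at T15, 61.9 to 72.9 FPKM in dcp5-1 at T0, 65.8 to 70.4 FPKM in Col-0 at T15 and 80.7 to 81.0 FPKM in Col-0 at T0. In polysomal RNA the root sums were 81.9 to 87.1 FPKM in dcp5-1 at T15, 65.4 to 71.3 FPKM in dcp5-1 at T0, 73.0 to 82.3 FPKM in Col-0 at T15 and 82.9 to 88.7 FPKM in Col-0 at T0. The NaCl change of 2 of the 5 root markers passed the test as higher in dcp5-1 than in Col-0 in each fraction and of 0 as lower, with a median difference over the 5 of 0.50 in polysomal and 0.41 in total RNA, against 0.01 and 0.02 over all genes tested. Of all genes tested, 6.49% passed as higher and 4.45% as lower in polysomal RNA, and 16.9% and 8.34% in total RNA. By the same test 3 of the 4 green markers tested were higher in total RNA and 1 in polysomal RNA, and 0 were lower. Their median differences were 0.46 in total and 0.24 in polysomal RNA. The seed reserve genes summed to at most 6.56 FPKM in any library. Green markers were thus lower in dcp5-1 at both times and in both fractions. The part of both marker lists in the results below was not tested. In such bulk RNA, fewer cells of a type and less RNA per cell cannot be told apart.

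PYK10 was among the most abundant messengers of the seedlings, between rank 11 and rank 72 by group mean of 24792 genes, namely the protein-coding genes of the nucleus with transcripts of 600 nt or more. In polysomal RNA it had 3804, 3896 and 3837 FPKM in dcp5-1 at T15, against 1905, 2012 and 2044 FPKM in Col-0 at T15. At T0 its polysomal level was 3836, 3773 and 3916 FPKM in dcp5-1, against 2517, 2462 and 2491 FPKM in Col-0. Total RNA held 3288, 3307 and 3251 FPKM in dcp5-1 at T15, against 1607, 1513 and 1598 FPKM in Col-0 at T15. Its total level at T0 was 2130.2, 2193 and 2186 FPKM in dcp5-1, against 1622, 1886 and 1679.7 FPKM in Col-0. Wherever time and fraction matched, the dcp5-1 libraries thus lay above all Col-0 libraries. In either direction, the genotypes did not overlap for 51.1% (total RNA at T0) to 59.6% (total RNA at T15) of all genes tested. From high to low, the group means were 3846 ± 46.6 FPKM for dcp5-1 polysomal at T15, 3842 ± 71.5 for dcp5-1 polysomal at T0 and 3282 ± 28.5 for dcp5-1 total at T15. They went on with 2490 ± 27.8 for Col-0 polysomal at T0, 2170 ± 34.2 for dcp5-1 total at T0 and 1987 ± 73.1 for Col-0 polysomal at T15. Lowest were 1729 ± 138 for Col-0 total at T0 and 1573 ± 51.8 for Col-0 total at T15 (SD, n = 3 each). Of the neighbours in this order, only the 2 dcp5-1 polysomal groups overlapped.

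BGLU21 and BGLU22, which like PYK10 can cleave scopolin, a coumarin glucoside, were far less abundant than PYK10, with ranks between 2194 and 5855 among the same genes. In polysomal RNA BGLU21 had 43.8, 47.2 and 44.0 FPKM in dcp5-1 at T15, against 50.5, 47.6 and 47.9 FPKM in Col-0 at T15. At T0 it had 34.2, 34.8 and 36.3 FPKM in dcp5-1, against 59.1, 56.4 and 57.6 FPKM in Col-0. In total RNA its levels were 35.3, 30.6 and 32.2 FPKM in dcp5-1 at T15, against 41.9, 37.6 and 38.8 FPKM in Col-0 at T15. At T0 they were 22.1, 21.7 and 21.4 FPKM in dcp5-1, against 38.8, 45.5 and 41.8 FPKM in Col-0. At matched time and fraction, all dcp5-1 libraries were therefore below all Col-0 libraries for BGLU21. In these settings 51.1% to 59.6% of all genes tested did not overlap between the genotypes. Its neighbour BGLU22 had 56.0, 60.03 and 57.7 FPKM in dcp5-1 polysomal RNA at T15, against 41.8, 40.7 and 38.8 FPKM in Col-0. At T0 it had 65.4, 64.8 and 66.1 FPKM in dcp5-1 polysomal RNA, against 41.4, 42.5 and 42.8 FPKM in Col-0. Its total RNA stood at 46.5, 45.4 and 45.5 FPKM in dcp5-1 at T15, against 38.1, 39.3 and 38.2 FPKM in Col-0 at T15, and at T0 at 28.5, 28.8 and 28.7 FPKM in dcp5-1, against 20.1, 20.8 and 21.7 FPKM in Col-0. BGLU22 was higher in every dcp5-1 library at matched time and fraction, so the pair moved in opposite directions between the genotypes. The log2 ratio of BGLU21 to BGLU22 ran from -0.91 to -0.34 over the 12 dcp5-1 libraries and from -0.06 to 1.09 over the 12 Col-0 libraries, a measure chosen after these values were seen and not tested. The 2 transcripts were 91.5% identical over 1962 aligned bases, and 5.16% of the 50-base words of BGLU21 also occurred in BGLU22, so that a part of their reads could be assigned to either. PYK10 shared no 50-base word with either gene.

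NAI2, without which ER bodies do not form, had 123, 120.2 and 122 FPKM in polysomal RNA of dcp5-1 at T15, against 99.4, 94.99 and 88.8 FPKM in Col-0 at T15. At T0 its polysomal level was 126, 126 and 129.9 FPKM in dcp5-1, against 96.5, 96.4 and 98.1 FPKM in Col-0. Total RNA held 105, 97.1 and 96.0 FPKM in dcp5-1 at T15, against 77.9, 83.6 and 82.3 FPKM in Col-0 at T15. At T0 it held 72.4, 78.2 and 66.1 FPKM in dcp5-1, against 74.5, 74.0 and 79.8 FPKM in Col-0. The genotypes overlapped in this last comparison and in no other for NAI2. In the other settings 52.8% to 59.6% of all genes tested did not overlap either.

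Among the lectins, PBP1 (also JAL30) and JAL22 belong to those that enlarge the PYK10 complex, and JAL33 to those that restrain its size. PBP1 lies in a row of lectin genes on chromosome 3 (5579290 to 5581032, plus strand, TAIR10.1) that also holds JAL33 (5588292 to 5590085). PBP1 had 1272, 1291 and 1296 FPKM in dcp5-1 polysomal RNA at T15, against 747, 831 and 841 FPKM in Col-0, and at T0 1379, 1389 and 1389 FPKM in dcp5-1, against 927, 959 and 937 FPKM in Col-0. Its total level was 699.8, 691 and 696 FPKM in dcp5-1 at T15, against 378, 376 and 387 FPKM in Col-0, and at T0 872, 820.0 and 841 FPKM in dcp5-1, against 452, 585 and 519 FPKM in Col-0. PBP1 was second to PYK10 among the members in each group and, at matched time and fraction, higher in every dcp5-1 library. JAL22 had 215, 217 and 216 FPKM in dcp5-1 polysomal RNA at T15, against 125, 129 and 137 FPKM in Col-0, and at T0 211, 206 and 205 FPKM in dcp5-1, against 167, 170.0 and 170.4 FPKM in Col-0. Total RNA of JAL22 stood at 110.5, 105 and 112 FPKM in dcp5-1 at T15, against 46.1, 49.2 and 48.1 FPKM in Col-0, and at T0 84.0, 77.8 and 83.7 FPKM in dcp5-1, against 57.2, 60.5 and 61.2 FPKM in Col-0. JAL22 too was higher in every dcp5-1 library at matched time and fraction. JAL33 had 499.7, 512 and 514 FPKM in dcp5-1 polysomal RNA at T15, against 312, 329 and 348 FPKM in Col-0, and at T0 499, 505 and 553 FPKM in dcp5-1, against 415, 397 and 400.2 FPKM in Col-0. Total RNA of JAL33 stood at 414, 423 and 458 FPKM in dcp5-1 at T15, against 238, 239 and 235 FPKM in Col-0, and at T0 577, 572 and 576 FPKM in dcp5-1, against 422, 469.8 and 415 FPKM in Col-0. JAL33 was higher in every dcp5-1 library at matched time and fraction as well, in settings where the genotypes did not overlap for 51.1% to 59.6% of all genes tested. JAL33 and PBP1 were the members whose total RNA was lower at T15 than at T0 in all libraries of both genotypes. In either direction, total RNA at T15 and T0 did not overlap for 63.3% of all genes tested in dcp5-1 and 66.4% in Col-0.

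GLL22, a GDSL lipase-like protein found in the PYK10 complex, had 61.8, 63.8 and 63.2 FPKM in dcp5-1 polysomal RNA at T15, against 36.0, 39.0 and 38.6 FPKM in Col-0. At T0 its polysomal level was 67.5, 68.0 and 69.4 FPKM in dcp5-1, against 47.5, 43.5 and 50.8 FPKM in Col-0. Total RNA of GLL22 stood at 61.8, 63.5 and 60.2 FPKM in dcp5-1 at T15, against 47.5, 48.4 and 49.5 FPKM in Col-0 at T15, and at T0 28.2, 33.4 and 31.3 FPKM in dcp5-1, against 16.9, 19.4 and 20.2 FPKM in Col-0. Again the genotypes did not overlap at any time or in any fraction, as for 51.1% to 59.6% of all genes tested, depending on the setting. GLL22 was 89.9% identical to its neighbour GLL23, with 3.04% of its 50-base words shared.

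**Figure D1:**
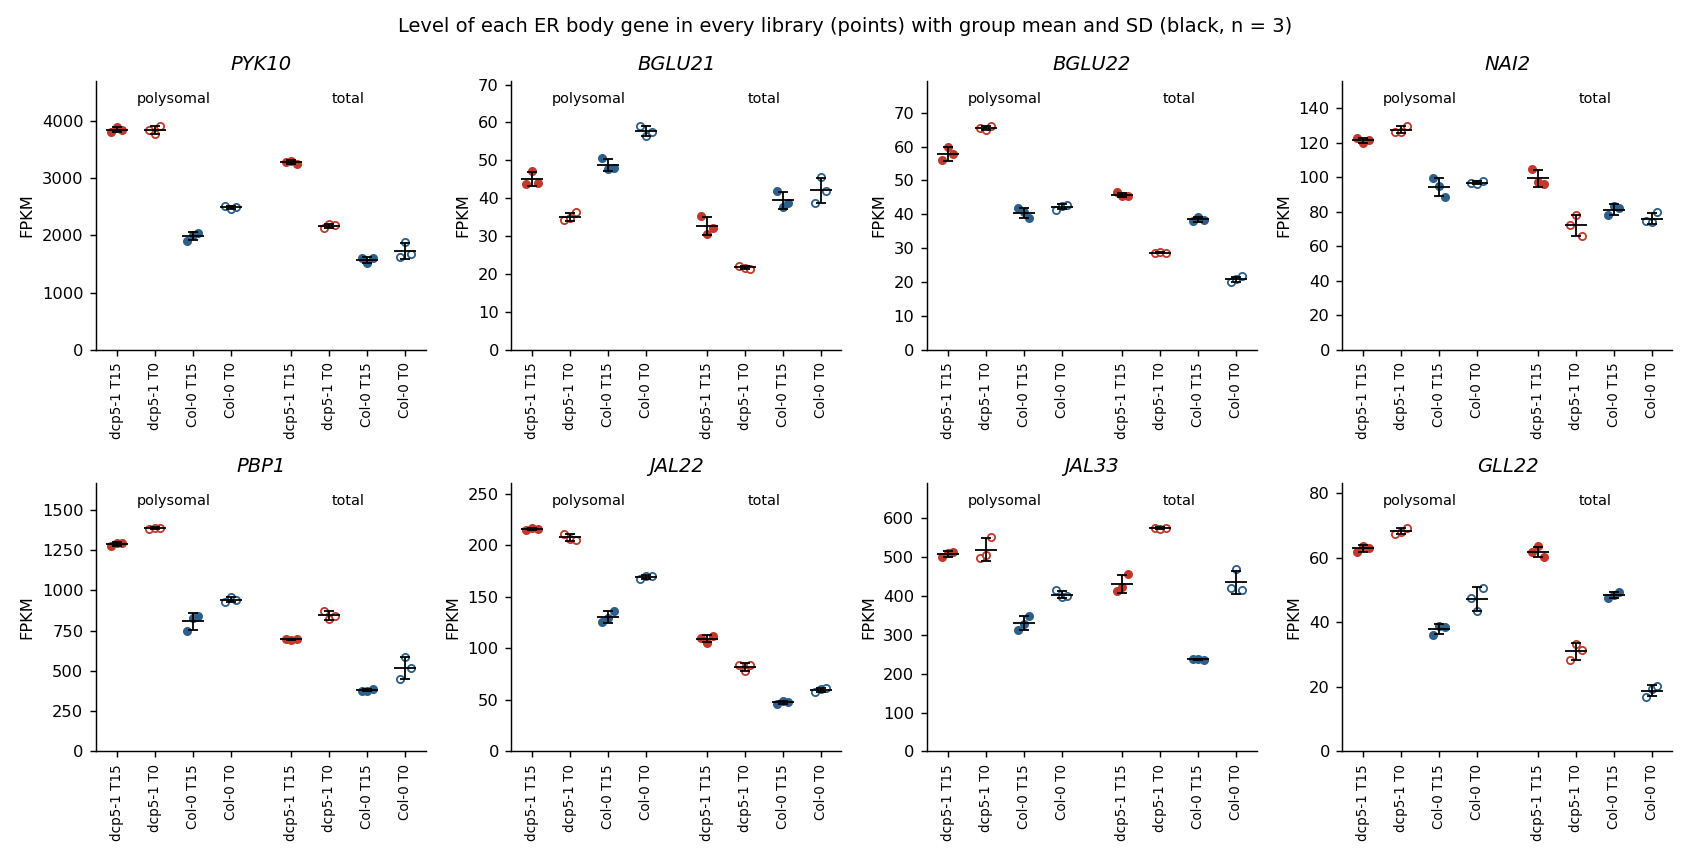
FPKM (vertical axis, linear from 0, own scale per gene) of each ER body gene in the 24 libraries, with the 4 polysomal groups on the left and the 4 total RNA groups on the right of each panel; points are libraries, filled for T15 and open for T0, red for dcp5-1 and blue for Col-0, and black marks give the mean and SD of 3. PYK10 sits at 3773 to 3916 FPKM in the 6 dcp5-1 polysomal libraries and at 1905 to 2517 FPKM in the 6 Col-0 ones, and BGLU21 is the gene with the red points below the blue ones.

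The comparison of dcp5-1 with Col-0 asks how these messengers stand in the mutant, and 7 of the 8 genes were higher in dcp5-1 in at least 3 of its 4 settings. In polysomal RNA at T15 PYK10 was 1.94-fold higher in dcp5-1, with a log2 difference of 0.95 ± 0.05 (SE, 3 against 3 libraries, adjusted p = 1.4e-12, limma over 20964 genes). JAL22, GLL22, PBP1 and JAL33 followed at 0.73 ± 0.04, 0.72 ± 0.06, 0.67 ± 0.06 and 0.62 ± 0.05, and BGLU22 and NAI2 at 0.51 ± 0.04 and 0.36 ± 0.05 (adjusted p of at most 1.1e-05, limma). These 7 passed the test upwards where 22.3% of all genes tested did so and 22.4% passed downwards, 44.7% in all. BGLU21 was at -0.11 ± 0.06 and did not pass (adjusted p = 0.12, limma). For each of the 8 genes the libraries of the genotypes did not overlap, which held for 52.8% of all genes tested. The median of the 8 genes was 0.65, against -0.01 over all genes tested.

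At T0 the polysomal differences were 0.63 ± 0.05 for PYK10, 0.62 ± 0.04 for BGLU22, 0.56 ± 0.06 for PBP1, 0.52 ± 0.06 for GLL22, 0.39 ± 0.05 for NAI2, 0.36 ± 0.05 for JAL33 and 0.29 ± 0.04 for JAL22 (adjusted p of at most 9.9e-06, limma). BGLU21 fell by 0.70 ± 0.06 (adjusted p = 2.1e-09, limma). Thus 7 genes rose and 1 fell, where 21.9% of all genes tested rose, 24% fell and 45.9% passed in all. Again no member overlapped between the genotypes, as for 56.3% of all genes tested. JAL22 was at 0.45 under nuclear scaling, which shifted the median over all genes by 0.13.

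In total RNA at T15, JAL22 and PYK10 were 2.29-fold and 2.09-fold higher in dcp5-1, by the ratio of mean FPKM, with fitted log2 differences of 1.18 ± 0.04 (adjusted p = 3.4e-15) and 1.06 ± 0.05 (adjusted p = 2.1e-13, limma). PBP1 and JAL33 were at 0.87 ± 0.06 and 0.86 ± 0.05, and GLL22, NAI2 and BGLU22 at 0.35 ± 0.06, 0.29 ± 0.05 and 0.24 ± 0.04, while BGLU21 was at -0.26 ± 0.06 (adjusted p of at most 0.00058, limma). Here 7 rose and 1 fell, against 24% and 26.1% of all genes tested, of which 50.0% passed in all, and 8 did not overlap, against 59.6% of all genes. At T0 the total RNA differences were 0.71 ± 0.06 for PBP1, 0.69 ± 0.06 for GLL22, 0.45 ± 0.04 for JAL22, 0.44 ± 0.04 for BGLU22, 0.40 ± 0.05 for JAL33 and 0.33 ± 0.05 for PYK10 (adjusted p of at most 1.1e-05, limma). BGLU21 fell by 0.92 ± 0.06, the largest difference in size of any member at T0 (adjusted p = 2.2e-11, limma), and NAI2 was at -0.08 ± 0.05 with a 95% interval of -0.19 to 0.04 (adjusted p = 0.26). So 6 rose and 1 fell, where over all genes tested 19.5% rose, 28.6% fell and 48.1% passed, and 7 did not overlap, against 51.1% of all genes. PYK10 was at 0.55 and JAL33 at 0.62 under nuclear scaling, which shifted the median over all genes by 0.18.

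**Figure D2:**
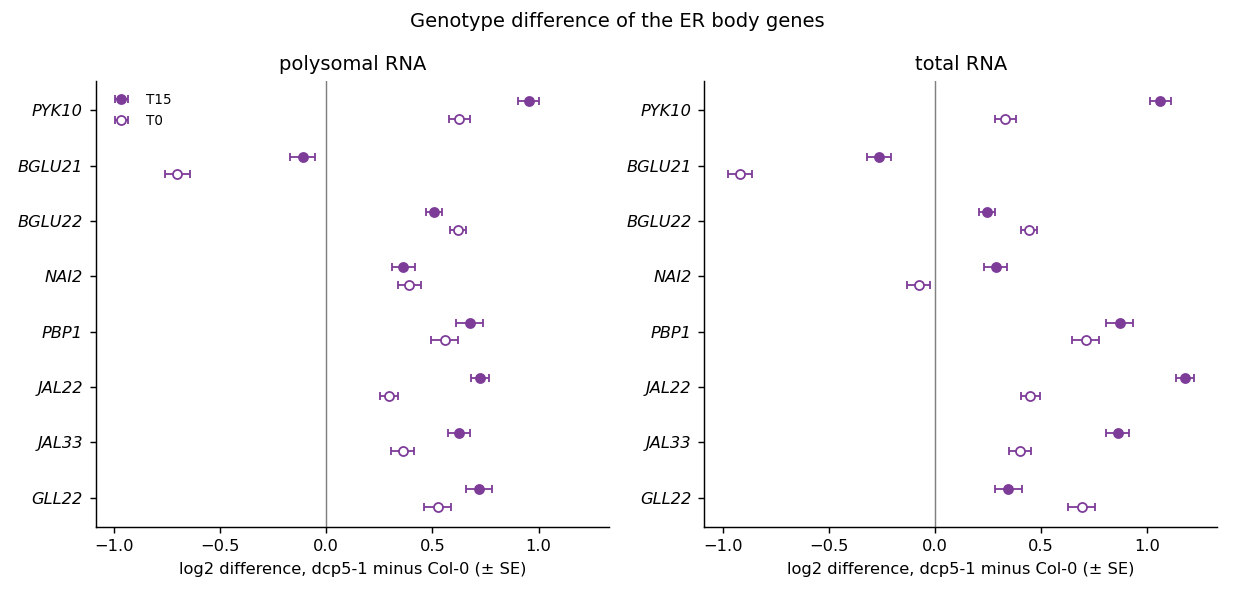
Log2 difference, dcp5-1 minus Col-0 (horizontal axis), of each ER body gene in polysomal RNA (left) and total RNA (right), at T15 (filled) and T0 (open); bars are ± SE from limma with 3 libraries per group. Points right of the line are higher in dcp5-1; BGLU21 lies left of it in all 4 settings, and JAL22 and PYK10 reach 1.18 and 1.06 in total RNA at T15.

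The NaCl change within dcp5-1 asks how the mutant's messengers stand after 15 min. In dcp5-1 total RNA all 8 genes changed, 6 upwards and 2 downwards, where 55.7% of all genes tested passed, 29.0% upwards and 26.8% downwards. GLL22 rose by 0.98 ± 0.06, BGLU22 by 0.66 ± 0.04, PYK10 by 0.60 ± 0.05, BGLU21 by 0.57 ± 0.06, NAI2 by 0.46 ± 0.05 and JAL22 by 0.41 ± 0.04 (adjusted p of at most 2.5e-07, limma). The lectin genes JAL33 and PBP1 fell by 0.41 ± 0.05 and by 0.28 ± 0.06 (adjusted p = 8.2e-07 and 0.00069, limma). So the 3 β-glucosidase genes, NAI2 and GLL22 rose in total RNA, and the lectin genes were split. After adjustment for the trend of the change on transcript length and GC content, NAI2 was at 0.25.

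On polysomes of dcp5-1 only BGLU21 rose, by 0.35 ± 0.06 (adjusted p = 6.8e-05), and only BGLU22 fell, by 0.17 ± 0.04 (adjusted p = 0.0013, limma), where 32.8% of all genes tested passed, 17.2% upwards and 15.5% downwards. PYK10 was at 0.00 ± 0.05 with a 95% interval of -0.10 to 0.10 (adjusted p = 0.99, limma). The remaining 5 genes lay between -0.12 and 0.06 (adjusted p of at least 0.17). Under nuclear scaling 6 genes passed and PYK10 was at -0.08 (adjusted p = 0.032, limma). In a fit of only the groups compared, 4 passed.

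In Col-0 total RNA 2 genes rose, 4 fell and 2 did not pass, where 65.7% of all genes tested passed, 33.2% upwards and 32.4% downwards. GLL22 rose by 1.32 ± 0.06 and BGLU22 by 0.85 ± 0.04, while JAL33 fell by 0.87 ± 0.05, PBP1 fell by 0.44 ± 0.06 and JAL22 fell by 0.31 ± 0.04 (adjusted p of at most 2.4e-06, limma). PYK10 was at -0.13 ± 0.05 (adjusted p = 0.022, limma), and this call was lost without library 1 of Col-0 at T0 (-0.07), without library 1 of Col-0 at T15 (-0.11, adjusted p = 0.11 for both, limma) and in a fit of only the groups compared (adjusted p = 0.24). BGLU21 and NAI2 were at -0.09 ± 0.06 and 0.09 ± 0.05 and did not pass. Nuclear scaling shifted the median over all genes by 0.23 and put PYK10 at 0.14, BGLU21 at 0.18, PBP1 at -0.16 and JAL22 at -0.04, so that the directions of PYK10 and BGLU21 turned and the call of JAL22 ended (adjusted p = 0.43, limma). NAI2 passed upwards under nuclear scaling (0.37) and downwards after adjustment for length and GC content (-0.20, adjusted p = 0.0036, limma), which also put PYK10 at -0.22 and BGLU21 at -0.21, past the test. Relative to that median PYK10 was at -0.14 without nuclear scaling and at -0.09 with it, and PBP1, JAL22 and JAL33 also stayed below the median.

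On polysomes of Col-0, 6 genes fell and none rose, where 17.1% of all genes tested fell, 15.6% rose and 32.7% passed. JAL22 fell by 0.37 ± 0.04, PYK10 by 0.33 ± 0.05, GLL22 by 0.31 ± 0.06, JAL33 by 0.29 ± 0.05, BGLU21 by 0.24 ± 0.06 and PBP1 by 0.22 ± 0.06 (adjusted p of at most 0.0086, limma). BGLU22 and NAI2 were at -0.06 ± 0.04 and -0.04 ± 0.05 (adjusted p = 0.24 and 0.61, limma). The PBP1 call was lost without library 0 of Col-0 polysomal RNA at T15 (-0.17, adjusted p = 0.061, limma).

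**Figure D3:**
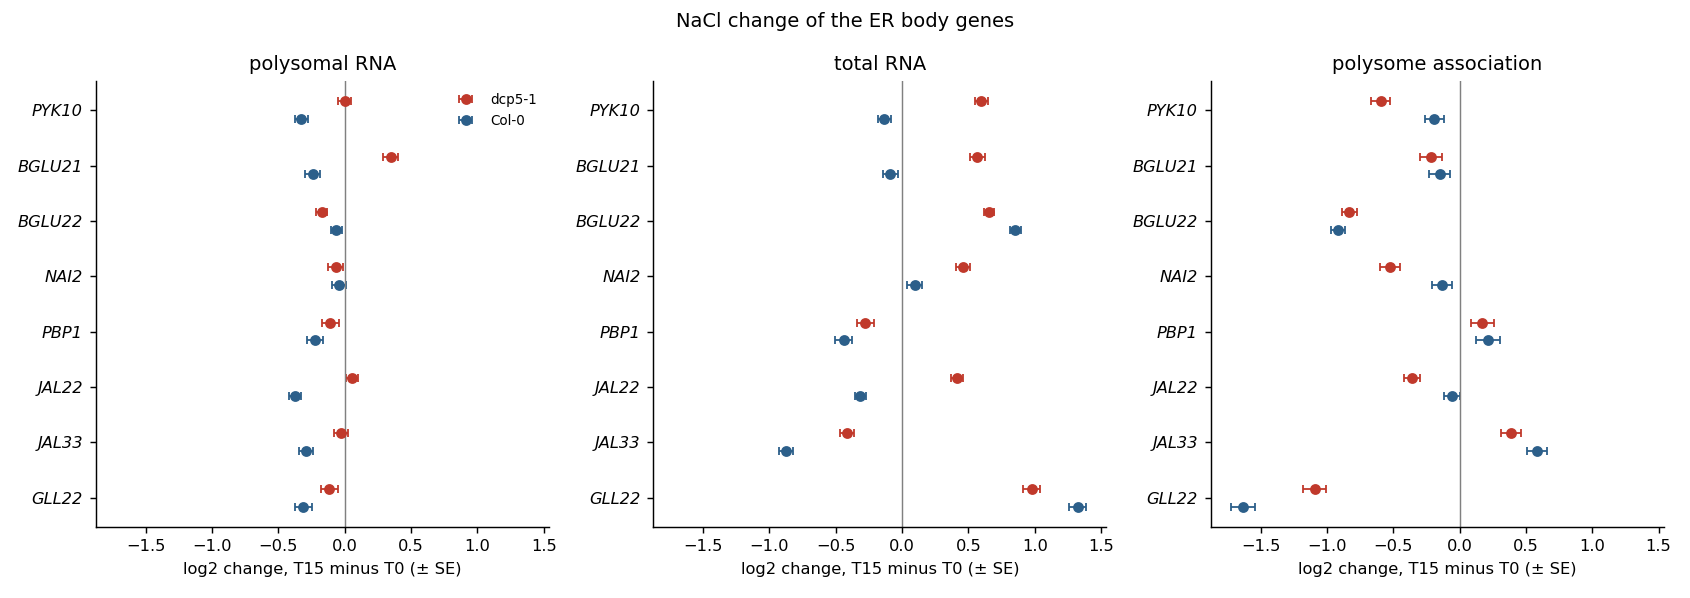
Log2 change, T15 minus T0 (horizontal axis), of each ER body gene in polysomal RNA (left), total RNA (middle) and polysome association, the polysomal change minus the total one (right); red is dcp5-1, blue is Col-0, and bars are ± SE from limma. In total RNA PYK10 lies at 0.60 in dcp5-1 and at -0.13 in Col-0, and GLL22 has the lowest association changes, -1.09 in dcp5-1 and -1.63 in Col-0.

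Whether the genotypes differed in their NaCl change was tested directly, as the change in dcp5-1 minus the change in Col-0. Across 19445 nuclear protein-coding genes, length and GC content accounted for 19.1% of the variance of this difference in total RNA. The share was 5.55% in polysomal RNA and 24.7% in association. Rank correlations of the difference with length were -0.40 in total RNA and 0.43 in association. The values in this paragraph are not adjusted for either. In total RNA the difference was 0.73 ± 0.07 for PYK10 (adjusted p = 2.8e-07), 0.73 ± 0.06 for JAL22, 0.65 ± 0.08 for BGLU21, 0.46 ± 0.08 for JAL33 and 0.36 ± 0.08 for NAI2 (adjusted p of at most 0.0014, limma). GLL22 and BGLU22 were at -0.34 ± 0.09 and -0.20 ± 0.05, since both rose more in Col-0 (adjusted p = 0.0067 and 0.011, limma). PBP1 was at 0.16 ± 0.09, with a 95% interval of -0.02 to 0.35. Hence 5 genes were above 0 and 2 below, where 16.9% and 8.34% of all genes tested were, and 25.2% in all. Nuclear scaling shifted the median over all genes by -0.19 and ended the call of NAI2 (0.13, adjusted p = 0.28, limma), with values of 0.43 for BGLU21, 0.23 for JAL33, -0.42 for BGLU22 and -0.57 for GLL22.

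In polysomal RNA BGLU21, JAL22, PYK10 and JAL33 differed in their NaCl change, at 0.59 ± 0.08, 0.43 ± 0.06, 0.33 ± 0.07 and 0.26 ± 0.08 (adjusted p = 5.2e-05, 6.6e-05, 0.0039 and 0.026, limma), where 10.9% of all genes tested passed, 6.49% above 0 and 4.45% below. BGLU22, NAI2, PBP1 and GLL22 did not pass, with values between -0.11 and 0.19. Under nuclear scaling PYK10 was at 0.21, BGLU22 passed below 0 (-0.23, adjusted p = 0.044, limma) and the call of JAL33 ended (0.15, adjusted p = 0.098, limma). The JAL33 call was also lost without library 0 or 1 of dcp5-1 at T0, library 1 or 2 of dcp5-1 at T15, or library 0 of Col-0 at T0 or at T15, with adjusted p of at most 0.074 (limma).

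Polysome association, the log2 distance of the polysomal level from the total level, was highest for JAL22 in both genotypes at T0. It is relative within the libraries and does not measure the amount of RNA on polysomes. Across 19445 nuclear protein-coding genes at T0, length and GC content accounted for 35.6% of its variance in dcp5-1 and 40.2% in Col-0. Association rose with length, at rank correlations of 0.48 and 0.49. At T0 in dcp5-1 it was 1.33 ± 0.04 for JAL22, 1.16 ± 0.04 for BGLU22, 1.12 ± 0.06 for GLL22, 0.82 ± 0.05 for PYK10, 0.82 ± 0.05 for NAI2, 0.71 ± 0.06 for PBP1, 0.67 ± 0.06 for BGLU21 and -0.15 ± 0.05 for JAL33. All 8 passed, 7 above 0 and 1 below, where 34.9% and 36.3% of all genes tested did, 71.2% in all. At T0 in Col-0 it was 1.49 ± 0.04 for JAL22, 1.28 ± 0.06 for GLL22, 0.98 ± 0.04 for BGLU22, 0.87 ± 0.06 for PBP1, 0.53 ± 0.05 for PYK10, 0.45 ± 0.06 for BGLU21 and 0.35 ± 0.05 for NAI2. These 7 passed above 0, where 35.3% of all genes tested did and 36.0% passed below, 71.3% in all, and JAL33 at -0.11 ± 0.05 did not (adjusted p = 0.078, limma). JAL33 was thus the member whose polysomal level lay below its total level at T0. The dcp5-1 call of JAL33 was lost without library 0 (-0.12) or library 1 (-0.13) of polysomal RNA (adjusted p = 0.079 and 0.065, limma). After adjustment for length and GC content, the Col-0 values were 0.26 for PYK10, 0.24 for BGLU21 and 0.11 for NAI2, which no longer passed (adjusted p = 0.082, limma), and the dcp5-1 values were 0.55 for PYK10, 0.44 for BGLU21 and -0.12 for JAL33, which no longer passed (adjusted p = 0.057, limma).

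At T15 the association in dcp5-1 was 0.98 ± 0.04 for JAL22, 0.89 ± 0.06 for PBP1, 0.45 ± 0.06 for BGLU21, 0.33 ± 0.04 for BGLU22, 0.29 ± 0.05 for NAI2, 0.24 ± 0.05 for JAL33 and 0.23 ± 0.05 for PYK10. These 7 passed above 0, where 33.6% of all genes tested did and 32.8% passed below, 66.4% in all, and GLL22 was at 0.03 ± 0.06. In Col-0 at T15 it was 1.43 ± 0.04 for JAL22, 1.08 ± 0.06 for PBP1, 0.47 ± 0.05 for JAL33, 0.34 ± 0.05 for PYK10, 0.30 ± 0.06 for BGLU21, 0.21 ± 0.05 for NAI2 and -0.35 ± 0.06 for GLL22. Here 6 passed above 0 and 1 below, where 31.6% and 29.8% of all genes tested did, 61.3% in all, and BGLU22 was at 0.07 ± 0.04. At this time PBP1 and JAL22 had the highest association of the members in both genotypes. Nuclear scaling shifted the median over all genes by -0.16 in dcp5-1 and -0.21 in Col-0. It ended the calls of PYK10 (0.03), NAI2 (0.09) and JAL33 (0.04) in dcp5-1 and of BGLU21 (0.05) and NAI2 (-0.04) in Col-0, and GLL22 in dcp5-1 (-0.17) and BGLU22 in Col-0 (-0.18) passed below 0. Under it BGLU21 was at 0.26 and BGLU22 at 0.14 in dcp5-1, and PYK10 was at 0.08, JAL33 at 0.22 and GLL22 at -0.60 in Col-0. After adjustment for length and GC content, PYK10 was at 0.02 in dcp5-1 (adjusted p = 0.70, limma) and at 0.16 in Col-0.

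**Figure D4:**
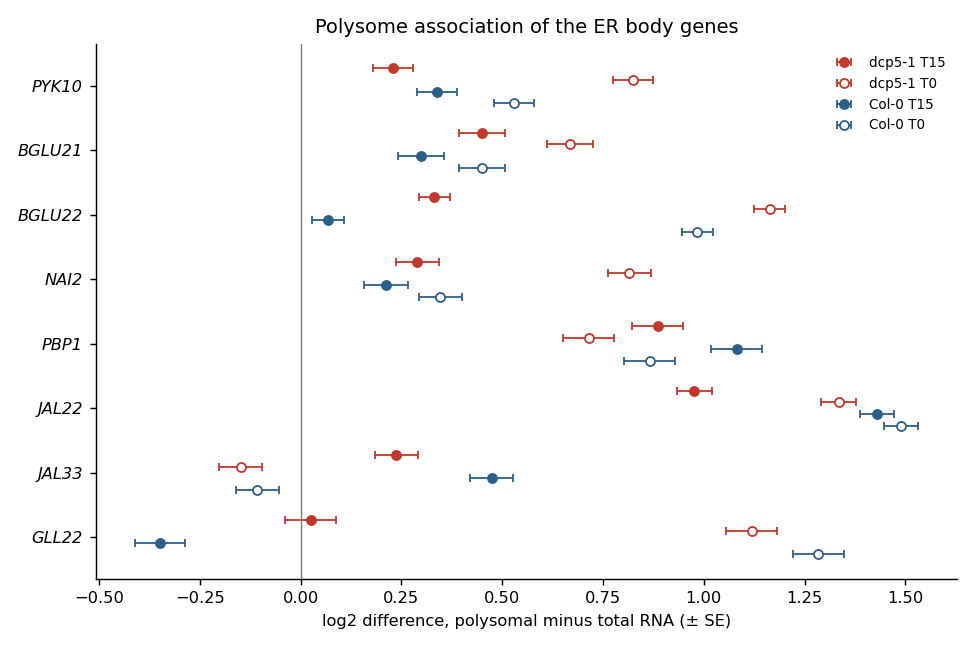
Polysome association, polysomal minus total RNA in log2 units (horizontal axis), of each ER body gene in dcp5-1 (red) and Col-0 (blue), at T15 (filled) and T0 (open); bars are ± SE from limma with 3 libraries per group and fraction. GLL22 lies at 0.03 in dcp5-1 and -0.35 in Col-0 at T15, and at 1.12 and 1.28 at T0, while JAL22 stays at 0.98 or above.

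The NaCl change of association was downwards for 5 genes and upwards for 1 in dcp5-1, where 14.0% and 12.3% of all genes tested changed so, 26.3% in all. GLL22 fell by 1.09 ± 0.09, BGLU22 by 0.83 ± 0.05, PYK10 by 0.60 ± 0.07, NAI2 by 0.53 ± 0.08 and JAL22 by 0.36 ± 0.06, and JAL33 rose by 0.39 ± 0.08 (adjusted p of at most 0.00051, limma). BGLU21 at -0.22 ± 0.08 and PBP1 at 0.17 ± 0.09 did not pass (adjusted p = 0.052 and 0.17, limma). BGLU21 did pass under nuclear scaling (-0.35), median-of-ratios scaling or a pseudocount of 0.1, and in a fit of only the groups compared both passed. JAL33 was at 0.26 and PBP1 at 0.04 under nuclear scaling, which shifted the median over all genes by -0.11.

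In Col-0 the association of GLL22 fell by 1.63 ± 0.09, that of BGLU22 by 0.92 ± 0.05 and that of PYK10 by 0.19 ± 0.07, and that of JAL33 rose by 0.58 ± 0.08 (adjusted p = 1.2e-11, 3.6e-11, 0.031 and 2e-06, limma). So 1 passed upwards and 3 downwards, where 22.8% and 21.5% of all genes tested did, 44.3% in all. The PYK10 call was lost without library 0 or 2 of total or polysomal RNA at T0, library 0 or 2 of total RNA at T15, or library 0 of polysomal RNA at T15, with values of -0.19 to -0.15 and adjusted p of at most 0.073 (limma). It was also lost in a fit of only the groups compared (adjusted p = 0.15) and after adjustment for length and GC content (-0.10, adjusted p = 0.30, limma). Nuclear scaling shifted the median over all genes by -0.20 and gave 7 genes past the test, with PYK10 at -0.44 and JAL33 at 0.34.

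The difference between the genotypes in this change was -0.40 ± 0.10 for PYK10, -0.39 ± 0.11 for NAI2, -0.30 ± 0.09 for JAL22 and 0.54 ± 0.13 for GLL22 (adjusted p = 0.019, 0.034, 0.041 and 0.014, limma), where 6.25% of all genes tested passed, 1.95% above 0 and 4.30% below. PYK10, NAI2 and JAL22 thus lost more association in dcp5-1, and GLL22 lost less. Under nuclear scaling only PYK10 and GLL22 of the 8 passed, where 1239 of 20907 genes tested did. NAI2 and JAL22 were then at -0.28 and -0.19 (adjusted p = 0.23 and 0.22, limma). The NAI2 call was lost in 11 and the JAL22 call in 17 of 24 fits that each left out 1 library, spread over all 8 groups, with adjusted p of at most 0.06 and 0.08 (limma).

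Between the genotypes at T0, association was higher in dcp5-1 for NAI2, at 0.47 ± 0.08, for PYK10, at 0.30 ± 0.07, and for BGLU22, at 0.18 ± 0.05 (adjusted p = 0.00045, 0.0088 and 0.037, limma), where 10.9% of all genes tested passed, 7.73% above 0 and 3.14% below. In a fit of only the groups compared, NAI2 alone passed, with adjusted p = 0.076 for PYK10 and 0.11 for BGLU22 (limma). The BGLU22 call was lost in 10 of 12 fits that each left out 1 library, all except those without library 0 or 1 of Col-0 total RNA, and under nuclear scaling (0.13) or adjustment for length and GC content (0.09). Under nuclear scaling PBP1 and JAL22 passed below 0 (-0.21 each). At T15, GLL22 at 0.37 ± 0.09 and BGLU22 at 0.26 ± 0.05 were higher in dcp5-1, and JAL22 at -0.45 ± 0.06 and JAL33 at -0.24 ± 0.08 were lower (adjusted p = 0.0077, 0.0027, 5e-05 and 0.042, limma), where 12.8% of all genes tested passed, 7.48% above 0 and 5.31% below. The JAL33 call was lost in 10 of 12 fits that each left out 1 library, all except those without library 0 of dcp5-1 total or of Col-0 polysomal RNA, and after adjustment for length and GC content (-0.18). PYK10 and NAI2, which differed between the genotypes at T0, were at -0.11 ± 0.07 and 0.08 ± 0.08 at T15 and did not pass.

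Other genes of the ER body include the regulator NAI1 and proteins of its membrane. NAI1 had 20.3, 21.5 and 20.6 FPKM in dcp5-1 total RNA at T15, against 29.8, 28.7 and 28.8 FPKM in Col-0, and at T0 25.8, 24.5 and 25.8 FPKM in dcp5-1, against 28.9, 32.8 and 30.6 FPKM in Col-0. NAI1, the activator of PYK10 and NAI2, was thus lower in dcp5-1, by log2 differences of -0.47 ± 0.06 at T15 and -0.27 ± 0.06 at T0 (adjusted p = 1.3e-06 and 0.00084, limma). In polysomal RNA NAI1 was at -0.55 ± 0.06 at T15 (adjusted p = 1.5e-07, limma) and at -0.12 ± 0.06 at T0, where it did not pass. Of NAI1, the NAI2 homologue TSA1 and the ER body membrane proteins MEB1 and MEB2, 1 was higher and 2 were lower in dcp5-1 total RNA at T0, with a median of -0.16, against -0.05 over all genes tested. Of all genes tested, 19.5% were higher and 28.6% lower there. At T15 in polysomal RNA 2 of these 4 genes were higher and 1 was lower, against 22.3% and 22.4% of all genes tested. TSA1 rose after NaCl in total RNA by 1.07 ± 0.09 in dcp5-1 and by 0.56 ± 0.09 in Col-0 (adjusted p of at most 1.1e-05, limma), at levels of at most 6.69 FPKM.

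Among related β-glucosidases, BGLU18, the main enzyme of the inducible ER bodies of leaves, was lower in dcp5-1, where PYK10 was higher. It had 23.8, 26.2 and 23.97 FPKM in dcp5-1 total RNA at T15, against 32.8, 34.6 and 34.8 FPKM in Col-0, and at T0 4.22, 4.84 and 4.81 FPKM in dcp5-1, against 20.3, 21.4 and 21.5 FPKM in Col-0. The genotypes did not overlap at either time, as for 59.6% of all genes tested at T15 and 51.1% at T0. At T0 the log2 difference was -1.97 ± 0.05 (adjusted p = 6.4e-18, limma), and its NaCl rise of 2.19 ± 0.05 in dcp5-1 exceeded that of 0.67 ± 0.05 in Col-0 by 1.52 ± 0.07 (adjusted p = 8.6e-12, limma). Of 6 related β-glucosidases 4 were tested, and 3 of them were lower and 1 was higher in dcp5-1 total RNA at T0, with a median of -1.03. Of all genes tested, 28.6% were lower and 19.5% higher. Lower with BGLU18 were BGLU19 at -1.01 and PEN2, a myrosinase of pathogen defence, at -1.05, and BGLU25 was higher at 0.49. BGLU20 was listed at 0 in every library and BGLU24 stayed below the filter. The myrosinases TGG1 and TGG2, which act on glucosinolates outside ER bodies, rose in total RNA after NaCl in both genotypes, TGG2 by 2.77 ± 0.05 in dcp5-1 and 2.04 ± 0.05 in Col-0.

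Of the other lectins, JAL31, JAL32, JAL34 and JAL35 were tested and JAL23 was not, being at 0.503 FPKM or less throughout. In polysomal RNA at T15, 3 of these 4 were higher and none was lower in dcp5-1, with a median of 0.24, and at T0 in total RNA 1 was higher and 1 lower. Over all genes tested, 22.3% were higher and 22.4% lower in the former setting, and 19.5% and 28.6% in the latter. JAL31, which lies 535 bases from PBP1, is 85.6% identical to it and shares 4.01% of its 50-base words with it, was at 0.19 ± 0.07 in polysomal RNA at T15 (adjusted p = 0.026, limma). Of the GDSL genes GLL23, GLL25 and AT1G54020, 2 were higher in dcp5-1 in each of the 4 settings and none was lower, GLL23 by 0.85 in polysomal RNA at T15. Depending on the setting, 19.5% to 24% of all genes tested were higher and 22.4% to 28.6% lower. All 5 ER chaperone genes, which fold proteins made at the endoplasmic reticulum, rose in total RNA and fell in association after NaCl in both genotypes. Of all genes tested, 29.0% rose in total RNA and 14.0% fell in association in dcp5-1, and 33.2% and 21.5% in Col-0. BIP1 changed by 0.77 ± 0.05 in total RNA and -0.86 ± 0.06 in association in dcp5-1, and by 1.06 ± 0.05 and -1.13 ± 0.06 in Col-0. In polysomal RNA at T15 all 5 were higher in dcp5-1, with a median of 0.48, where 22.3% of all genes tested were higher. The 5 transcripts were 1851 to 2836 nt long, against a median of 1697 nt over the nuclear protein-coding genes tested. Length and GC content accounted for 23.5% of the variance of the NaCl change of total RNA in dcp5-1 and 35.9% in Col-0. For the association change they accounted for 19.9% and 39.7%. The values of these 5 genes were not adjusted for either.

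**Figure D5:**
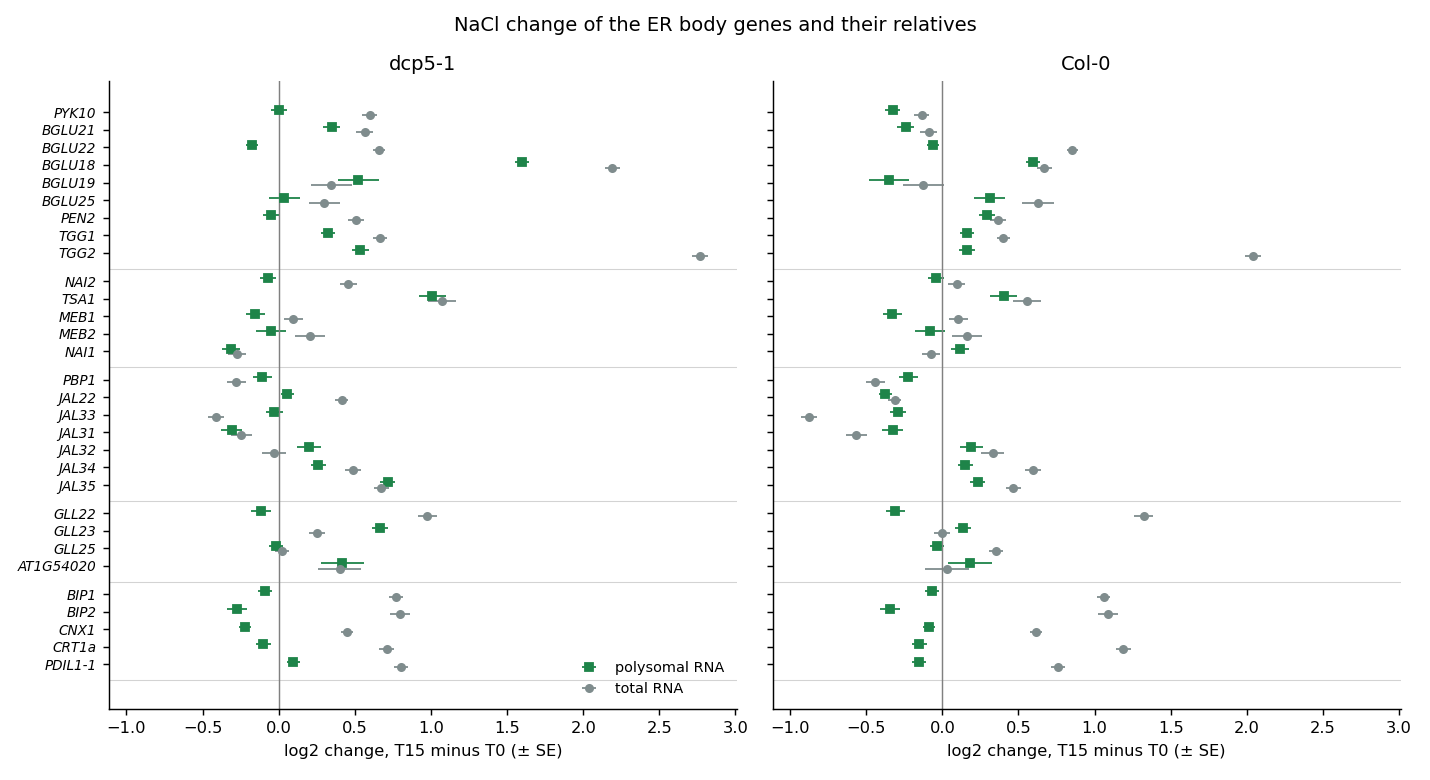
Log2 NaCl change, T15 minus T0 (horizontal axis), of the ER body genes and related genes in dcp5-1 (left) and Col-0 (right); green squares are polysomal RNA, grey circles total RNA, bars ± SE from limma, and lines part the families. TGG2 and BGLU18 have the largest total RNA values in dcp5-1, 2.77 and 2.19, and the 5 chaperone genes at the bottom rise in total RNA with polysomal values between -0.34 and 0.10.

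The genes whose profile over the 24 libraries was most like that of PYK10, by the root mean square difference of log2(FPKM + 1) after centring, were AT1G64500 at 0.14, RSR4 at 0.15, AT5G42720 at 0.15, AAE7 at 0.16 and UGT78D2 at 0.16. RSR4 takes part in vitamin B6 synthesis, AAE7 in acetate use and UGT78D2 in flavonoid glycosylation. RSR4 had 342 ± 7.23 FPKM in dcp5-1 and 188 ± 13.2 FPKM in Col-0 polysomal RNA at T15 (SD, n = 3 each), where PYK10 had 3846 ± 46.6 and 1987 ± 73.1 FPKM. Among 20963 genes ranked in this way NAI2 was at rank 262, BGLU22 at 454, PBP1 at 513, JAL33 at 1354, GLL22 at 1601, JAL22 at 2846 and BGLU21 at 12653. No other member was therefore among the closest, and BGLU21 was the farthest of the 7. The libraries share their depth and composition, so the ranks are a description.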

How the data were processed

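Total and polysomal RNA of 24 libraries were read from 1 table of FPKM values deposited by the authors (fragments per kilobase of transcript, scaled to the library total). Alignment with Bowtie to TAIR10 is named per the submitters' processing notes, without a version. Which tool assigned fragments to genes, and whether libraries were scaled to each other, is not given in the sources used here. Multiplied by transcript length less 230 to 285 nt, between 98.7% and 99.5% of low values (1 to 3 fragments, genes of at least 600 nt) lay within 0.1 of a whole fragment, which gave the depth. FPKM is relative within a library, and dividing by length means that a shift between long and short transcripts moves many genes together. Depth sets counting error only.

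limma-trend (limma 3.58.1, R 4.3.3, robust) was fitted on log2(FPKM + 1) for the 20964 genes that reached 1 FPKM in 3 libraries or more (55.0% of the table), with 8 groups and 16 residual degrees of freedom. Folds on this scale understate changes of low genes. A gene rose or fell, or passed, at a Benjamini-Hochberg adjusted p below 0.05 over all genes tested, in each of 19 comparisons. Intervals are at 95%. A count test had been planned for counts; the table held FPKM. The fit was also run on simulated data. The column numbers 0 to 2 are not tied to the replicate numbers of the titles by any label, and same-numbered columns did not deviate together (median correlation of deviations -0.03 over 84 pairs). The ecotype label differs between dcp5-1 samples, from Col-1 up to Col-12; groups follow the genotype label. Positions, lengths and sequences are from TAIR10.1 (RefSeq), which matched 99.2% of the identifiers, read with Python 3.11.15, pandas 2.3.3 and Biopython 1.88. The 8 genes, the lists of related genes and markers and the rule for genes like PYK10 were chosen with earlier results of these data known. Alternatives were nuclear scaling (296 organelle-encoded identifiers left out before rescaling), median-of-ratios scaling, a pseudocount of 0.1, no filter, leaving out each library in turn, a fit of only the groups compared, the column number as a replicate block, and adjustment for the trend on length and GC content.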

Additional observations from a re-analysis of the deposited data

Results flagged for a closer look

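The NaCl change of 7 genes in total RNA, 4 in polysomal RNA and 4 in polysome association differed between the genotypes by the test of the difference itself, the change in dcp5-1 minus the change in Col-0 (limma, adjusted p below 0.05). In total RNA these were PYK10 at 0.73, JAL22 at 0.73, BGLU21 at 0.65, JAL33 at 0.46, NAI2 at 0.36, BGLU22 at -0.20 and GLL22 at -0.34 on the log2 scale. In polysomal RNA they were BGLU21 at 0.59, JAL22 at 0.43, PYK10 at 0.33 and JAL33 at 0.26. In association they were GLL22 at 0.54, JAL22 at -0.30, NAI2 at -0.39 and PYK10 at -0.40. The share of all genes tested that passed was 25.2%, 10.9% and 6.25% in these comparisons.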

How the results depend on the processing

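Of 152 values of the 8 genes over 19 comparisons, 152 kept their direction and their side of the threshold without a filter on low values, 151 with a pseudocount of 0.1, 150 with median-of-ratios scaling, 134 after adjustment for length and GC content and 118 under nuclear scaling. Of 144 refitted on only the groups compared, 136 did. With the column number as a replicate block all 152 did, so the block changed no call, and the labels do not show that the numbers pair libraries.

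Values turned under nuclear scaling in 12 cases. In 6 the value had passed or came to pass the test: PYK10 in the NaCl change of dcp5-1 polysomal RNA (-0.081) and of Col-0 total RNA (0.145), BGLU21 in the NaCl change of Col-0 total RNA (0.183), and polysomal minus total RNA of GLL22 in dcp5-1 at T15 (-0.172) and of BGLU22 and NAI2 in Col-0 at T15 (-0.183 and -0.043). The other 6 passed in neither fit: the NaCl change of JAL22 in dcp5-1 polysomal RNA (-0.026) and of PBP1 in Col-0 association (-0.030), NAI2 in dcp5-1 minus Col-0 in T0 total RNA (0.138), and the difference of the NaCl changes for PBP1 in total RNA (-0.070) and for PBP1 and BGLU21 in association (0.071 and 0.046). After adjustment for length and GC content 8 turned: NAI2 in the NaCl change of Col-0 total RNA (-0.196), past the test, and, passing in neither fit, the NaCl change of PYK10 and JAL33 in dcp5-1 polysomal RNA (-0.0085 and 0.0085) and of NAI2 and JAL22 in Col-0 association (0.096 and 0.0024), NAI2 in dcp5-1 minus Col-0 in T15 association (-0.015), PBP1 in the difference of the association changes (0.0081), and GLL22 in polysomal minus total RNA of dcp5-1 at T15 (-0.082). The number of the 8 genes that passed was 6 under nuclear scaling (6944 of 20907 genes tested) and 4 in a fit of only the groups compared for NaCl in dcp5-1 polysomal RNA, against 2 as reported. Under nuclear scaling it was 7 for the NaCl change of association in Col-0 (10766 of 20907 genes tested), against 4, and 2 for the difference between the genotypes in that change (1239 of 20907 genes tested), against 4. In a fit of only the groups compared it was 1 for the T0 genotype difference in association, against 3. Leaving out 1 library gave 2 to 4 genes for the difference in the association change. Of 1344 values with a library left out, 1261 kept their direction and call, 66 lost the call, 11 gained it and 6 turned. Those 6, none past the test, were in the NaCl change of dcp5-1 polysomal RNA for PYK10 (-0.011 to 0.016) and JAL33 (-0.056 to 0.018), of Col-0 polysomal RNA for NAI2 (-0.078 to 0.0029), and in the difference of the changes for NAI2 in polysomal RNA (-0.071 to 0.0097) and PBP1 in association (-0.139 to 0.046). The causes were not tested. Limits are 3 libraries a group, no transfer control, 1 mutant allele, and FPKM values that are relative within a library.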
